A study of Mus musculus with 18 samples.

Results

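The cytosolic ribosomal protein genes were taken as every gene of the count table whose symbol is Rpl or Rps followed by a number, with a trailing a, l or x allowed, together with Rplp0, Rplp1, Rplp2 and Rpsa. Rps27l, the Rps6k kinases and symbols ending in ps and a number were left out. The rule found 83 of 54532 genes, of which 49 belong to the large subunit, 31 to the small subunit and 3 to the stalk. The annotation lists 80 of them as protein-coding and 3 (Rps4l, Rpl6l and Rpl32l) as processed pseudogenes, and 79 passed the filter on low counts. The other four, Rpl3l, Rpl10l, Rpl39l and Rpl32l, were too low to test.

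Bulk RNA of whole jejunum, the middle stretch of the small intestine, came from C57BL/6 mice aged 8 to 12 weeks with no genetic change named. FLASH mice (7 libraries, numbered 1, 2, 4, 5, 6, 7 and 9) had a single dose of 15 Gy over the abdomen at an ultra-high dose rate. CONV mice (5 libraries, numbered 2, 3, 5, 6 and 7) had the same dose at the conventional rate, and tissue of both was taken 16 h later. Control mice (6 libraries, numbered 1 to 6) were not irradiated. The labels do not say that each library is a mouse of its own, so the p-values here describe the spread of these samples, which may be technical.

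Ribosomes translate messenger RNA into protein. The small subunit holds the messenger RNA and decodes it, while the large subunit joins amino acids, and the P stalk of the large subunit recruits the elongation factors. Messenger RNAs for ribosomal proteins are abundant, mostly short, and begin with a terminal oligopyrimidine (TOP) tract, through which the kinase complex mTORC1 and the binding protein Larp1 control their translation and stability. Several ribosomal proteins, among them Rpl5, Rpl11 and Rpl26, also take part in the p53 response when ribosome assembly is disturbed.

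The pyrimidine tract is a sequence feature of this family that the rule did not use, and it is shown here for members whose values follow. RefSeq promoter windows (GRCm38.p6) existed for 61 members. The stretch from 20 bases before to 40 bases after the annotated start was searched on both strands for CTTTCC and CTCTTT and also for CTTTTC and CCTTTT, which can overlap one another in one tract. On the sense strand, at least one of them was found in 31 of 61 members (50.8%) against 2280 of 27025 genes (8.4%). On the antisense strand the figures were 2 members (3.3%) and 2268 genes (8.4%). CTTTCC was the most frequent in members, at 17 of 61 (27.9%) against 3.2% of all genes. The lines show the tract in 6 members, 30 bases each, 5′ to 3′, with the unbroken run of C and T that holds the match in capitals.
Rps6 (chr4:86857347-86857376, minus strand): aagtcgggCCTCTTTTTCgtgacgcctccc
Rpl38 (chr11:114668570-114668599, plus strand): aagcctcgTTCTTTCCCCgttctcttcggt
Rps27 (chr3:90213629-90213658, minus strand): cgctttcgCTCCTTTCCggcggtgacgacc
Rpl5 (chr5:107900500-107900529, plus strand): tacagccaCTCTTTCTCacgtcgcttgcgt
Rps15a (chr7:118116141-118116170, minus strand): ccggcccaCTCTCTTTCTgccatcttccct
Rpl26 (chr11:68901579-68901608, plus strand): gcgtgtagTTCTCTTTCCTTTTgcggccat
In Rps6, Rpl38 and Rps27 the run begins 1 or 2 bases before the RefSeq start, in Rps15a and Rpl5 it begins 15 and 20 bases before it, and in Rpl26 it begins at base 22 of the transcript. A match is a description of these letters and not a mapped start site, and a member without a match only lacks these letters in this window.

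Library totals ran from 19.9 to 30.2 M (1e6) estimated counts. All 12 enterocyte markers passed the filter, and 6 exocrine pancreas markers summed to 57 counts over all 18 libraries, with 2 of them at 0 throughout. Other cell types moved with irradiation. Of 12 enterocyte markers, 7 were higher in CONV and 9 in FLASH. Of 9 smooth muscle markers, 4 and 9 were lower. Of 9 crypt proliferation markers, 5 and 6 were lower, of 6 plasma cell markers, 4 and 5, and of 7 T cell markers, 6 and 6. Of 7 Paneth cell markers, 2 were higher and none lower in CONV, though the median log2 fold change of the list was -0.22. With scaling by library totals 1 was higher and 1 lower in CONV, and with the later correction for transcript length and GC content 1 and 3. In FLASH 1 Paneth cell marker was higher and 6 were lower. Over all genes tested, 10.2% were called higher and 12% lower in CONV, and 16.7% and 21% in FLASH. Summed smooth muscle CPM (counts scaled to the size of each library by TMM, in the usual unit of counts per M) ranged from 1168 to 3536 in control, 170 to 1168 in CONV and 395 to 1221 in FLASH. The part of these shifts in any ribosomal protein result was not tested, and in bulk tissue fewer cells of a type and less RNA per cell cannot be told apart.

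The ribosomal protein genes held 1.94 to 4.89% of a library's counts, and the range within each group was wider than the distance between the group means. Their share was 2.29, 2.60, 2.99, 2.24, 2.44 and 4.89% in control 1 to 6. In CONV 2, 3, 5, 6 and 7 it was 3.78, 2.76, 2.47, 4.02 and 3.09%. In FLASH 1, 2, 4, 5, 6, 7 and 9 it was 4.23, 3.28, 2.07, 1.94, 2.32, 2.32 and 2.16%. One library in each group stood high (control 6, CONV 6 and FLASH 1), and the ranges of the 3 groups overlapped. The means were 2.91 ± 1.01% in control (SD, n = 6), 3.22 ± 0.66% in CONV (SD, n = 5) and 2.62 ± 0.84% in FLASH (SD, n = 7). The control mean was 2.51% without control 6, and the FLASH mean was 2.35% without FLASH 1.

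**Figure D1:**
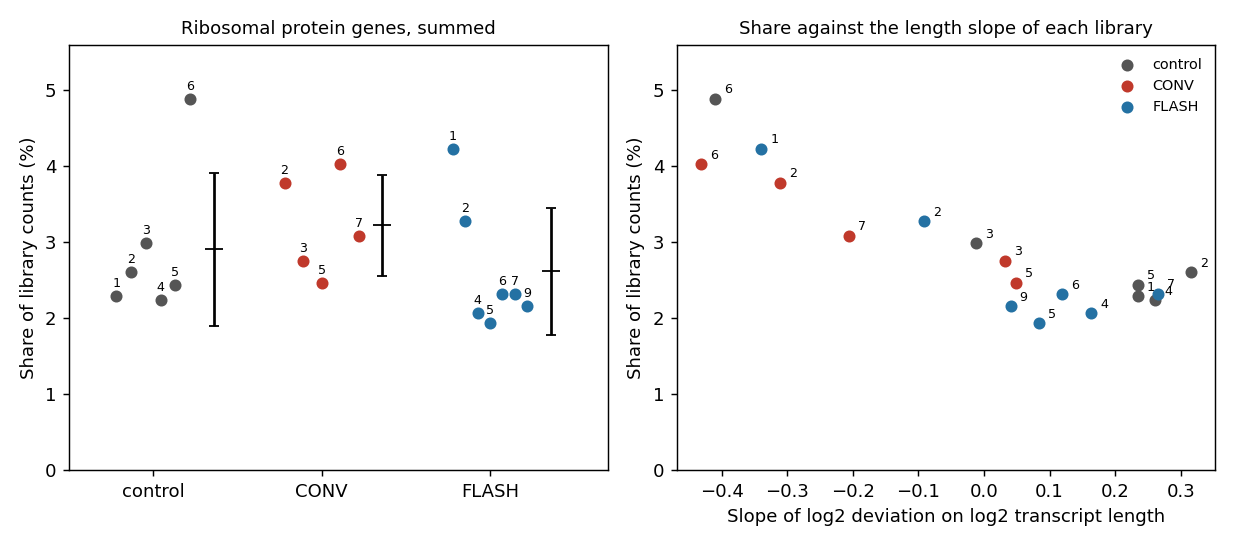
Left, percent of each library's counts held by the 83 ribosomal protein genes, with 1 point per library (numbered by replicate) and the group mean and SD in black. Right, the same share against the slope of each library's log2 deviations on log2 transcript length. Control 6, CONV 6 and FLASH 1 hold the highest share of their group and its most negative slope.

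The members moved as a block. In log2 CPM, the first principal component of the 79 tested members held 95.4% of their variance over the 18 libraries, against 37.5% for all 16257 tested genes. Control 6 was the highest control library for 79 of 79 members, CONV 6 the highest of its group for 75 and FLASH 1 for 78. Against the median of the other control libraries, control 6 was higher by a median of 1.20 on the log2 scale, from 0.57 for Rpl4 to 1.70 for Rps14. The same median was 0.81 for CONV 6 and 1.09 for FLASH 1. The coefficient of variation of a member's CPM over all libraries had a median of 37.2%, and it dropped to a median of 7.8% when each member was counted per 10000 ribosomal protein counts of its own library. Rps6, the S6 kinase substrate of the small subunit, kept the most constant share, with a coefficient of variation of 3.23%.

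**Figure D2:**
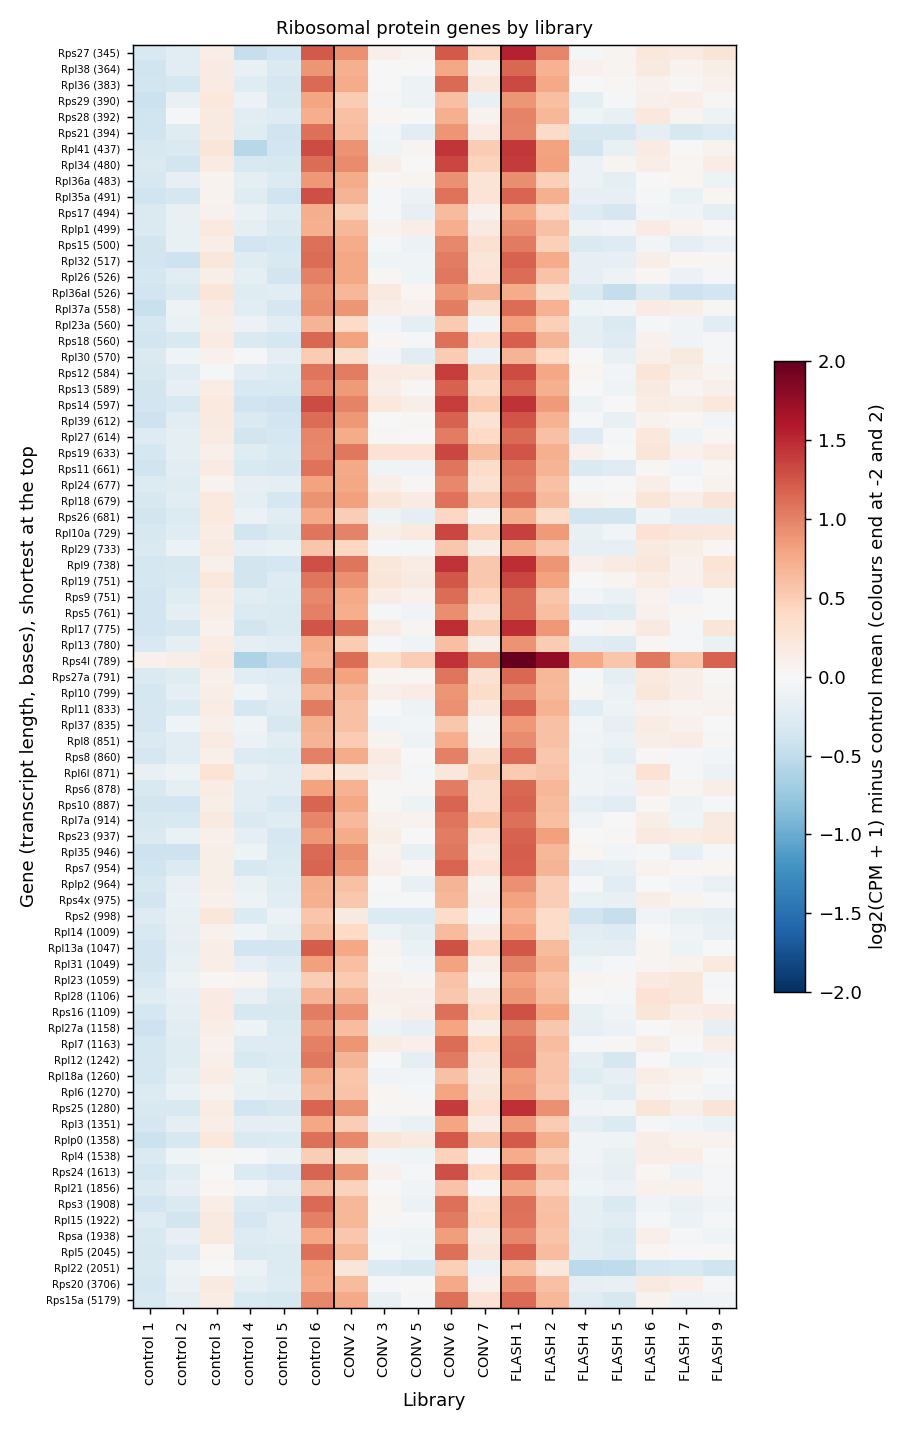
Level of the 79 tested members (rows, shortest transcript at the top, length in bases in brackets) in the 18 libraries (columns), as log2(CPM + 1) minus the mean of the 6 control libraries. Red columns run through nearly all rows in control 6, CONV 2, CONV 6, FLASH 1 and FLASH 2.

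Control 6, CONV 6, FLASH 1 and CONV 2, which were high for the members, were also libraries in which short transcripts in general were high. For each library, the deviation of log2 CPM from the gene's mean was regressed on log2 transcript length over 8948 protein-coding genes. These genes had a mean log2 CPM over 3. A negative slope means that short transcripts were over-represented. The slope was -0.41 in control 6, -0.43 in CONV 6, -0.34 in FLASH 1, -0.31 in CONV 2 and -0.21 in CONV 7, and it lay between -0.09 and 0.32 in the other libraries. Without the members it was -0.41, -0.43 and -0.34 in the first 3 of these libraries. The 5 libraries with the most negative slopes had shares from 3.09 to 4.89%, and the others from 1.94 to 3.28%. The 3.28% was that of FLASH 2, also high for the members, whose slope was only -0.09. The labels name no batch that could separate these libraries, and the part of RNA quality or of library preparation was not tested.

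In CONV against control, 1 of 79 members rose and none fell (edgeR quasi-likelihood test, adjusted over all genes, threshold 0.05), while 10.2% of all genes tested were called higher and 12% lower. The one called was Rps4l. The median log2 fold change of the members was 0.38, against -0.04 over all genes, and 77 of 79 were positive, from -0.02 for Rps2 to 0.89 for Rps4l. At an unadjusted p under 0.05 there were 2 members, Rps4l and Rps19. No member had all CONV libraries above or all below the control libraries, whereas 5.46% of all genes did so above and 4.95% below. The standard error of a member's log2 fold change had a median of 0.28, close to the size of the median change. Without CONV 6 the median was 0.19, and with library totals in place of TMM it was 0.15, where that of all genes was -0.25.

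In FLASH against control, again 1 member rose, Rps4l, and none fell, while 16.7% of all genes were called higher and 21% lower. The median of the members was 0.21, against -0.07 over all genes, with 74 positive and 5 negative. With library totals in place of TMM the median of all genes shifted to -0.44 and that of the members to -0.16, so the sign of the family's median depends on the scaling, while its distance above the median of all genes was 0.28 under both. Without FLASH 1 the median was 0.04. At an unadjusted p under 0.05 Rps4l was the only member. None was without overlap between the groups, where 6.93% of all genes lay above and 6.86% below.

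In FLASH against CONV, no member was called in either direction by edgeR, while 9.88% of all genes were called higher and 9.91% lower, and 1 member, Rpl36al, had an unadjusted p under 0.05. The median was -0.15 for the members and -0.02 for all genes, and 70 of 79 were negative. No member was without overlap, against 4.08% of all genes above and 4.45% below. This median rested on single libraries: it was -0.36 without FLASH 1 and 0.01 without CONV 6. With library totals it was -0.30, where that of all genes was -0.18.

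The calls against control depended on control 6. Without it, 36 members were higher in CONV (19.5% of all genes were) and 14 in FLASH (20.7%), and all 79 were positive in both comparisons. None was lower (20.7% and 23.6% of all genes were), and none was called in FLASH against CONV (12.5% of all genes higher and 12.2% lower). The medians then were 0.65 and 0.46. When control 6, CONV 6 and FLASH 1 were left out together, so that each group lost its highest library, 31 members were higher in CONV (16.6% of all genes) and 9 in FLASH (21.8%), with medians of 0.52 and 0.33 and none lower (15.6% and 22.1%). In CONV the share of members called was then above that of all genes, and in FLASH it was below it. The libraries left out were those highest for these same members, and the members moved as a block. These shares are therefore a description and no test of the family. FLASH against CONV then had 1 call, Rpl36al, lower by 0.64 on the log2 scale (adjusted p = 0.0242), where 11.2% of all genes were called lower, and none was higher (12.2%).

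Large subunit members had medians of 0.33 in CONV and 0.21 in FLASH against control (45 tested). Rpl41, the smallest of the ribosomal proteins, had the highest level per kilobase of transcript of all members, 1165 CPM per kilobase over all libraries. Its CPM ranged from 260 to 944 in control with a median of 309. It was 714, 360, 395, 1029 and 546 in the CONV libraries, and from 297 to 1026 in FLASH with a median of 404. The 3 groups covered nearly the same range, and neither comparison with control passed (log2 fold change 0.51 ± 0.38 SE in CONV and 0.24 ± 0.35 SE in FLASH, adjusted p 0.33 and 0.61). Rpl10, which joins the large subunit late in its assembly, stood at 835 CPM per kilobase, and its log2 fold changes of 0.41 in CONV and 0.27 in FLASH did not pass (adjusted p 0.18 and 0.32).

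Rpl5 and Rpl11 form, with 5S ribosomal RNA, the particle that binds Mdm2 when ribosome assembly is impaired. Rpl5 lay at 392.2 to 1048 CPM in control, with a median of 406, and control 6 held the maximum. It was 775, 482, 457, 1048 and 586 CPM in CONV and 404 to 1125 in FLASH, with a median of 492.8. All groups overlapped, with log2 fold changes of 0.35 ± 0.32 (SE) in CONV and 0.19 ± 0.29 (SE) in FLASH. Rpl11 had log2 fold changes of 0.27 and 0.24. Rpl26, which binds the p53 messenger RNA, had 0.39 and 0.17. None of the 3 passed in any comparison (smallest adjusted p 0.34, Rpl26 in CONV against control).

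Small subunit members had medians of 0.40 in CONV and 0.20 in FLASH (31 tested). Rps6 ranged from 377 to 819 CPM in control with a median of 406, and from 430 to 1032 in FLASH with a median of 512. In CONV it was 754, 474, 476, 951 and 584 CPM. Its log2 fold changes were 0.41 ± 0.27 (SE) and 0.29 ± 0.25 (SE), with adjusted p 0.25 and 0.37. Rps14, a protein of the small subunit's platform, had the largest excess in control 6 of all members, at 879 CPM against 264 to 403 in the other control libraries. Rps19, the gene most often mutated in Diamond-Blackfan anaemia, was 430, 252, 252, 523 and 316 CPM in CONV against 162 to 403 in control (median 179), a log2 fold change of 0.70 ± 0.28 (SE, adjusted p = 0.080). It was 207 to 494 CPM in FLASH, with a median of 228 and a log2 fold change of 0.35. Rpsa, which is also the laminin receptor precursor, had 0.28 and 0.16.

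The P stalk members gave medians of 0.33 in CONV and 0.22 in FLASH. Rplp0, the stalk base and a common reference gene, ran from 824 to 2361 CPM in control with a median of 906. In CONV it was 2145, 1309, 1252, 2571 and 1606 CPM, and in FLASH it ran from 1044 to 2588 with a median of 1164. Every CONV library lay above 4 of the 6 control libraries, but control 3 and control 6 overlapped them, and the log2 fold change of 0.57 ± 0.31 (SE) did not pass (adjusted p = 0.17). Rplp1 and Rplp2, the acidic tips of the stalk, had log2 fold changes of 0.33 and 0.23 in CONV and 0.22 and 0.15 in FLASH. The summed CPM of small over large subunit members stayed between 0.68 and 0.75 in all 18 libraries, with means of 0.72 ± 0.02 in control, 0.73 ± 0.02 in CONV and 0.71 ± 0.02 in FLASH (SD, n = 6, 5 and 7).

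Rps4l, an intronless copy related to the X-linked Rps4x, was the member that rose in both irradiated groups. It lies at chr6:148354656-148355598 (mm10, plus strand), and the annotation calls it a transcribed processed pseudogene. Its level was 17.99 to 45.9 CPM in control with a median of 30.3, and control 6 held the maximum. It was 61.9, 36.1, 39.8, 78.1 and 56.9 CPM in the CONV libraries, in order of their numbers, and 41.2 to 120 CPM in FLASH with a median of 59.2. Apart from control 6, every control library lay below every irradiated one. The log2 fold change was 0.89 ± 0.30 (SE) in CONV (adjusted p = 0.0416) and 1.20 ± 0.28 (SE) in FLASH (adjusted p = 0.00282), and FLASH differed from CONV by 0.31 ± 0.29 (SE, adjusted p = 0.49). Leaving out any of control 1 to 5, CONV 2, CONV 6 or CONV 7 ended the CONV call, with adjusted p from 0.0567 to 0.135. The FLASH call held in every fit that left out 1 library, with adjusted p from 0.00107 to 0.00809.

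The estimated count of Rps4l was a whole number in 16 of 18 libraries, while Rps4x and most members had a whole number in none. Rps4x itself had log2 fold changes of 0.23 and 0.16 and did not pass (adjusted p 0.44 and 0.57). Rps4l lies within the span of Tmtc1, which is transcribed from the other strand, and whether the authors' counting used strand is not given in the sources used here. Tmtc1 fell in CONV (-1.15, adjusted p = 0.00776) and was not called in FLASH against control (-0.31, adjusted p = 0.34). It was higher in FLASH than in CONV (0.84, adjusted p = 0.034). The part of Tmtc1 in the counts of Rps4l was not tested.

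Because most of the variation was shared, members were also compared after each library had been scaled to its own summed ribosomal protein counts, which removes any shift common to the family. On that scale no member was called in CONV against control (9.96% of all genes called), 2 were called in FLASH against control (24.3%, made up of 7.8% higher and 16.5% lower) and none in FLASH against CONV (4.64%), by edgeR over all genes. At an unadjusted p under 0.05 there were 5, 4 and 2 members. The 2 calls were Rps4l, higher by 0.92 (adjusted p = 0.00105), and Rpl22, lower by 0.41 on the log2 scale (adjusted p = 0.0163).

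Rpl22, a large subunit protein that binds RNA outside the ribosome and has the paralogue Rpl22l1, took a smaller part of the family in FLASH than in control. Per 10000 ribosomal protein counts it was 49.5, 52.2, 44.4, 52.4, 47.9 and 43.9 in control 1 to 6. It was 35.0, 38.9, 38.9, 34.3 and 36.7 in CONV, and 34.8 to 38.6 in FLASH with a mean of 36.5 ± 1.28 (SD, n = 7). Both irradiated groups lay wholly below control, including control 6. In CONV the difference of -0.40 missed the threshold (adjusted p = 0.053), and it passed without control 6 (adjusted p = 0.0228) and without FLASH 1 (0.0431). In CPM, Rpl22 was 122 ± 40.9 in control, 120 ± 30.1 in CONV and 108 ± 36.3 in FLASH (SD, n = 6, 5 and 7), with log2 fold changes of -0.02 and -0.18 that did not pass. Rpl22l1 had log2 fold changes of 0.39 and 0.35 in CPM (adjusted p 0.37 and 0.39). Scaled to the summed ribosomal protein counts, it had 0.04 in CONV and 0.10 in FLASH (adjusted p 0.86 and 0.63).

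Rpl36al, an autosomal copy of the X-linked Rpl36a, had the smallest p of all members in FLASH against CONV. Per 10000 ribosomal protein counts it was 23.1 to 26.5 in control and 23.9, 27.1, 25.5, 23.3 and 32.3 in CONV. In FLASH it was 18.03 to 21.9. All FLASH libraries lay below all CONV and all control libraries on this scale, where 0.683% and 3.77% of all genes did so. The test gave -0.44 against CONV (adjusted p = 0.068) and -0.33 against control (adjusted p = 0.068), so neither passed. The FLASH against CONV difference passed without control 6 (adjusted p = 0.0496) and without control 6, CONV 6 and FLASH 1 (adjusted p = 0.0336). In CPM it was -0.57 ± 0.26 (SE, adjusted p = 0.12) and passed without FLASH 1 (-0.75, adjusted p = 0.0320). Rpl36al overlaps Gm49383 on the same strand, and how the authors' counting divided reads between them is not given in the sources used here.

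**Figure D3:**
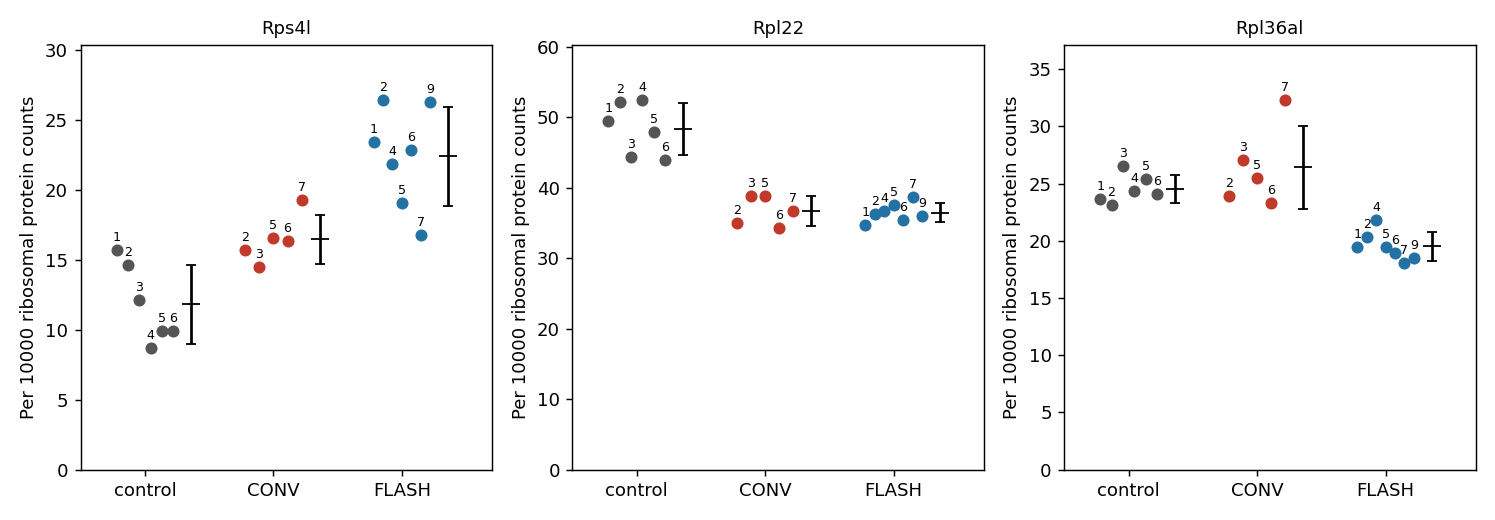
Counts of Rps4l, Rpl22 and Rpl36al per 10000 ribosomal protein counts, with 1 point per library (numbered by replicate) and the group mean and SD in black. Rpl22 is below every control library in both irradiated groups, and Rpl36al is below all other libraries in FLASH.

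Members whose group ranges did not overlap on this relative scale were picked out after their values were seen, and apart from Rps4l and Rpl22 in FLASH against control none of them passed the test. In CONV against control 6 lay above (Rpl7, Rpl18, Rpl19, Rplp0, Rps9 and Rps19) and 2 below (Rpl22 and Rpl27a), where 3.04% and 2.81% of all genes did. In FLASH against control 3 lay above (Rps4l, Rps19 and Rps23) and 3 below (Rpl22, Rpl36al and Rps26), where 3.7% and 3.77% of all genes did. In FLASH against CONV 2 lay above (Rpl38 and Rps23, 2.77% of all genes) and 3 below (Rpl36al, Rplp0 and Rps19, 0.683%). Rps19 took 83.0 to 87.3 of every 10000 ribosomal protein counts in control, 101 to 110 in CONV and 89.1 to 98.2 in FLASH. Its 3 groups did not overlap, with CONV highest and FLASH between the others. The adjusted p for Rps19 was 0.076 in CONV, 0.35 in FLASH and 0.38 between the irradiated groups. Without control 6, Rps19 (0.33, adjusted p = 0.0453) and Rpl9 (0.37, adjusted p = 0.0411) were called in CONV. Rps2, whose paralogous copies are many, had the most negative value in CONV on this scale, -0.41 (adjusted p = 0.061), and was called without control 6 (-0.47, adjusted p = 0.0150).

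Differences among the members followed transcript length only weakly. By annotation, the tested members had transcripts of 345 (Rps27) to 5179 bases (Rps15a, whose annotated transcript carries a long end beyond the coding part). Whether the annotated transcripts are the forms expressed here was not tested. Over the 79 members, the log2 fold change had a Pearson r with log2 transcript length of -0.14 in CONV, -0.12 in FLASH and 0.03 between them, as a description across genes that share all their libraries. With coding length, over the 77 protein-coding members, r was -0.03, -0.06 and -0.02.

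Other protein-coding genes of the same length, with mean log2 CPM over 3, had medians near those of the members in CONV against control. Below 600 bases the median was 0.36 for 23 members and 0.38 for 118 other genes. It was 0.41 and 0.45 between 600 and 1000 bases (30 and 436 genes) and 0.31 and 0.32 between 1000 and 2000 bases (20 and 1891 genes). Above 2000 bases of annotated length it was 0.31 for 4 members and -0.05 for 6426 other genes. In FLASH against control the 3 shorter bands gave 0.22, 0.22 and 0.17 for members and 0.15, 0.10 and 0.13 for the others. In FLASH against CONV they gave -0.19, -0.18 and -0.13 for members and -0.33, -0.30 and -0.17 for the others.

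**Figure D4:**
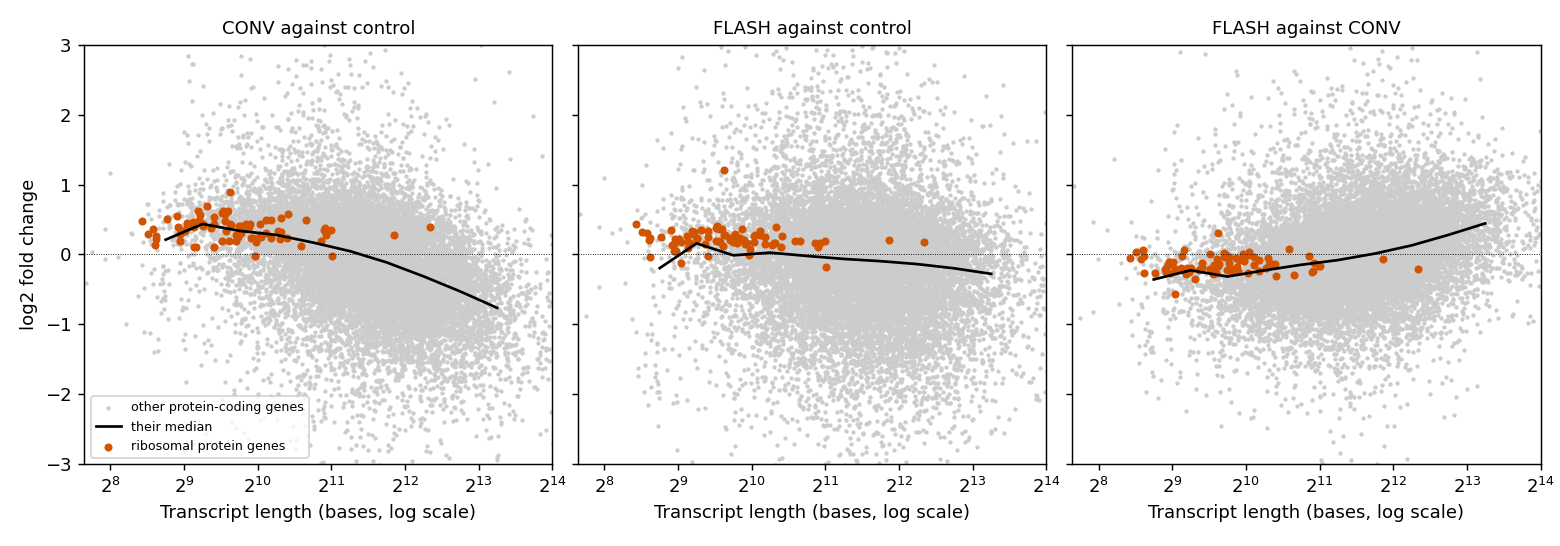
log2 fold change against transcript length (log scale) for the ribosomal protein genes (orange) and other protein-coding genes (grey, values beyond 3 in either direction not shown), with the median of the other genes in bins of at least 20 genes as a black line. The grey genes are tested protein-coding genes of any level. In CONV against control the members lie along the line of other short transcripts.

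An added correction, an offset fitted in each library to the transcript length and GC content of all genes, brought the median of the members from 0.38 to -0.01 in CONV against control, where the median of all genes was -0.12. With it, 3 members were lower in CONV, namely Rpl23a, Rpl30 and Rps26 (16.5% of all genes lower), and none was higher (9.33%). In FLASH against control the median was 0.12, none was lower (28.6% of all genes) and 9 members were higher (17.8%), namely Rpl9, Rpl18, Rpl34, Rpl38, Rplp1, Rps4l, Rps27, Rps28 and Rps29. In FLASH against CONV the median turned from -0.15 to 0.12, none was lower (12.9% of all genes) and 6 members were higher (12.7%), namely Rpl23a, Rpl30, Rpl37, Rpl38, Rps28 and Rps29. Most of these are among the shortest: of 23 members under 600 bases, 6 (26.1%) were called higher in FLASH against control and 5 (21.7%) in FLASH against CONV, beside 32.2% and 12.7% of 118 other genes of that length.

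The 5 members with the shortest transcripts, Rps27, Rpl38, Rpl36, Rps29 and Rps28, show the range of these settings. Rpl38, a surface protein of the large subunit, lay at 58.6 to 143 CPM in control with a median of 67.9, at 127, 77.5, 76.7, 132 and 83.2 CPM in CONV, and at 80.2 to 173 CPM in FLASH with a median of 83.5. Its log2 fold change in FLASH against control was 0.33 ± 0.24 (SE, adjusted p = 0.30), and 0.40 (adjusted p = 0.000601) with the offset. Rps27, a zinc-finger protein of the small subunit, had 108 to 350 CPM in control, 281, 159, 155, 349 and 201 in CONV and 147 to 433 in FLASH (medians 124, 201 and 172). Its log2 fold change in FLASH was 0.43 (adjusted p = 0.31), and 0.51 (adjusted p = 0.00249) with the offset. Rps28 turned in FLASH against CONV, from -0.02 (adjusted p = 0.96) to 0.34 (adjusted p = 0.0115) with the offset. Rpl36 passed in no comparison with or without it. At the other end, Rps20, with an annotated transcript of 3706 bases, had 0.27 and 0.21 without the offset, and Rps15a had 0.39 and 0.18, and neither passed. Rps28, Rps14 and Rpl5 each overlap a gene on the other strand (Kank3, Ndst1 and Fam69a), where strand use in counting is not given in the sources used here.

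The tissue-restricted paralogues were near zero. Rpl10l, known from testis, had 0 counts in all 18 libraries. Rpl39l, also known from male germ cells, summed to 10 counts and Rpl3l, known from striated muscle, to 13.0 counts over all libraries. The processed pseudogene Rpl32l summed to 112 counts. Copies with a ps symbol, 300 in the table, held counts equal to 0.48 to 0.64% of the member counts of a library. Of 47 tested, 1 rose in FLASH (Rps6-ps4, 0.67, adjusted p = 0.0489; with library totals none rose and 1 fell) and none was called in the other comparisons. Without control 6, 6 rose in CONV and 5 in FLASH, where 19.5% and 20.7% of all genes did. In the main fit 10.2% and 16.7% of all genes rose. Only 6.5% of the members' values above 0 were whole numbers, against 75% over all genes, and reads that fit several near-identical copies were divided by estimation, so single members are less certain than their sum.

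Among 10 ribosomal proteins and relatives outside the naming rule, 1 rose in CONV, Rps27l, a p53-induced relative of Rps27, with 39.1 to 143 CPM in control, 104 to 230 in CONV and 67.4 to 203 in FLASH. Its log2 fold change was 1.20 ± 0.35 (SE, adjusted p = 0.0216) in CONV and 0.63 ± 0.33 (SE, adjusted p = 0.13) in FLASH, and FLASH against CONV was not called (-0.57, adjusted p = 0.25). With the length and GC offset it was called in FLASH as well (0.57, adjusted p = 0.000361). Without control 6, 5 of the 10 were higher in CONV and 4 in FLASH. Of all genes, 19.5% and 20.7% then were, and 10.2% and 16.7% with control 6 kept. Rps3a1, which encodes the common Rps3a protein, had log2 fold changes of 0.27 and 0.19. Fau, which encodes a small subunit protein fused to a ubiquitin-like one, had 0.67 and 0.40. Rack1, the kinase scaffold on the small subunit, had 0.34 and 0.13. Rpl7l1, Rps27rt, Rps3a2 and Rps3a3 were not called either.

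The summed CPM of 19 other TOP messenger RNAs, which include Rack1 and Fau, was 20540 in control 6 and 10040 to 13140 in the other control libraries. It was 18160, 13060, 13680, 21910 and 15230 in CONV and 12570 to 23170 in FLASH, where FLASH 1 held the maximum. Of the 19, 1 fell in CONV (12% of all genes) and none rose (10.2%). In FLASH 2 rose and 2 fell (16.7% and 21%), and FLASH against CONV gave 1 in each direction (9.88% higher and 9.91% lower). Their medians were 0.34, 0.23 and -0.10. Without control 6, 8 rose and 3 fell in CONV (19.5% and 20.7% of all genes), and 6 rose and 2 fell in FLASH (20.7% and 23.6%). With library totals 3 fell in CONV and 7 in FLASH, and none rose. Hnrnpa1, a splicing factor, fell in CONV (-0.65, adjusted p = 0.00768) and was higher in FLASH than in CONV (0.61, adjusted p = 0.00993). Pabpc1, the poly(A)-binding protein, fell in FLASH (-0.55, adjusted p = 0.0154). Tpt1, the abundant TOP-regulated protein TCTP, rose in FLASH (0.61, adjusted p = 0.0331).

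Of 18 genes of mTORC1, its inhibitors and TOP control, 4 rose and 3 fell in CONV (10.2% and 12% of all genes). In FLASH 6 rose and 1 fell (16.7% and 21%), and 4 were higher in FLASH than in CONV (9.88%). Library totals instead gave 1 and 3, 5 and 5, and 3 higher and 1 lower. Without control 6 the counts were 5 and 7 in CONV, 6 and 3 in FLASH, and 6 and 1 between them. All genes then had 19.5% and 20.7%, 20.7% and 23.6%, and 12.5% and 12.2%. Sesn2, a stress-induced inhibitor of mTORC1, rose by 2.01 ± 0.18 (SE, adjusted p = 7.48e-07) in CONV and by 2.09 ± 0.17 (SE, adjusted p = 1.57e-07) in FLASH. Ddit4, another stress-induced inhibitor, rose in FLASH (3.22, adjusted p = 8.96e-05) and was higher there than in CONV (2.21, adjusted p = 0.00676). Sesn1 likewise rose in FLASH (1.65) and was higher than in CONV (1.45, adjusted p = 0.00802). Eif4ebp1, the translation repressor that mTORC1 inactivates, rose in FLASH (1.43, adjusted p = 0.000222), and Deptor, a subunit that inhibits mTOR, fell in CONV (-1.21, adjusted p = 0.0149).

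Of 53 ribosome assembly factors, 6 fell and none rose in CONV, where 12% of all genes were lower and 10.2% higher. In FLASH 10 fell and 5 rose (21% and 16.7% of all genes). FLASH against CONV gave 2 in each direction (9.88% of all genes higher and 9.91% lower). Without control 6, 15 fell and 7 rose in CONV (20.7% and 19.5% of all genes), and 15 fell and 6 rose in FLASH (23.6% and 20.7%). With library totals 14 fell in CONV, and 29 fell and 1 rose in FLASH. Of all 16257 genes, 2846 then fell in CONV, and 6550 fell and 1381 rose in FLASH. Dkc1, the pseudouridine synthase of ribosomal RNA, fell in both groups (-0.47 and -0.79, adjusted p 0.0244 and 0.00014). Heatr1, which acts in the making of small subunit RNA, fell in both (-0.83 and -0.91, adjusted p 0.0233 and 0.00368), and so did the RNA acetyltransferase Nat10 (-0.73 and -0.74, adjusted p 0.0199 and 0.00508). Nop56, of the methylation particle, fell in FLASH (-0.73, adjusted p = 0.000277) and was lower there than in CONV (-0.46, adjusted p = 0.0223), a call that ended with the length and GC offset (-0.34, adjusted p = 0.127). Ncl (nucleolin) fell in CONV (-0.75, adjusted p = 0.0406, and -0.36, adjusted p = 0.0874, with the offset) and was higher in FLASH than in CONV (0.87, adjusted p = 0.0202). The offset took Ncl at an annotated length of 8202 bases, and whether that transcript is the one expressed here was not tested. Eif6, which keeps the large subunit from joining too early, rose in FLASH (1.17, adjusted p = 0.000622).

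Of 32 translation factors, 6 rose in CONV and 5 in FLASH (10.2% and 16.7% of all genes), and none fell (12% and 21%). FLASH against CONV gave 7 lower (9.91%). With library totals 1 rose in CONV, and 12 fell and none rose in FLASH, where 6550 of all 16257 genes fell. Without control 6, 13 rose and 5 fell in CONV (19.5% and 20.7%), and 8 rose and 1 fell in FLASH (20.7% and 23.6%). Eif4g2, an initiation factor related to eIF4G, rose in both (0.41 and 0.39, adjusted p 0.0157 and 0.00735), and both calls ended with the length and GC offset (0.05 and 0.28, adjusted p 0.845 and 0.142). The offset took Eif4g2 at an annotated length of 742 bases, and whether that transcript is the one expressed here was not tested. Eif4a2, an initiation helicase, rose in CONV (0.82, adjusted p = 0.0432) and was lower in FLASH than in CONV (-1.12, adjusted p = 0.00776).

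Mitochondria have ribosomes of their own, whose proteins are encoded by other nuclear genes. Of 75, 13 rose in CONV (median 0.44), where 10.2% of all genes were higher. In FLASH 2 rose and 7 fell (median -0.08), beside 16.7% and 21% of all genes. Against CONV, FLASH had 20 lower (median -0.47) and none higher, beside 9.91% and 9.88% of all genes. Mrpl38 fell in FLASH (-1.09, adjusted p = 2.22e-05) and was lower there than in CONV (-1.02, adjusted p = 0.000472), and Mrps6 rose in both (1.52 and 1.39, adjusted p 0.000684 and 0.000262). With library totals 4 rose in CONV, and 1 rose and 36 fell in FLASH. Without control 6, 48 rose in CONV (19.5% of all genes), and 9 rose and 5 fell in FLASH (20.7% and 23.6%). FLASH against CONV gave 44 lower and none higher with library totals. It gave 31 lower without control 6 (12.2% of all genes), and 27 lower and 2 higher with the length and GC offset (12.9% and 12.7%). Of all 16257 genes, library totals had 909 risen in CONV, 1381 risen and 6550 fallen in FLASH, and 2816 lower in FLASH than in CONV. The nuclear subunits of the respiratory chain have, like the ribosomal proteins, short transcripts (median 732 bases). Of 72, 3 rose in CONV and 5 in FLASH (10.2% and 16.7% of all genes), and none fell. In the main fit none was called in FLASH against CONV, and the 3 medians were 0.45, 0.34 and -0.09. With library totals 1 rose in CONV, 5 fell in FLASH and 3 were lower in FLASH than in CONV. Without control 6, 44 rose in CONV and 39 in FLASH (19.5% and 20.7% of all genes), and 2 were lower in FLASH than in CONV (12.2%). With the length and GC offset 33 rose and 3 fell in FLASH (17.8% and 28.6%). FLASH against CONV then gave 11 higher and 1 lower (12.7% and 12.9%).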

How the data were processed

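Poly(A)-selected stranded libraries were made from 250 ng of jejunal RNA and read as single-end reads of 100 bp, per the labels. The authors aligned with STAR and quantified with Salmon (versions not given in the sources used here) on mm10, and name edgeR 3.40.2 and limma 3.54.2, per the submitters' processing notes. The deposited table holds estimated counts for 54532 genes, which were rounded before testing. A second deposited table holds the authors' normalized log2 values for 19193 genes and served 1 alternative.

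Groups came from the treatment label. The test was edgeR 4.0.16 (R 4.3.3) quasi-likelihood with filterByExpr, TMM and all 18 libraries in 1 fit, with Benjamini-Hochberg adjustment over 16257 genes and a threshold of 0.05. Symbols, transcript lengths and coordinates came from GENCODE M21, with the length taken from 1 annotated transcript per gene. 37 gene IDs had no symbol. Standard errors were obtained from each fold change and its F statistic. In simulated data, 29.3, 54.2 and 35.4% of genes changed 2-fold and 84.0, 89.9 and 83.7% changed 4-fold were recovered in CONV against control, FLASH against control and FLASH against CONV (16014, 15990 and 16005 genes). False calls were 4.24, 5.37 and 2.5% of calls. Only 200 genes were changed there and genes were drawn independently, whereas the members moved as a block, so these rates do not give the power for the members. Alternatives were other scalings, filters and tools (DESeq2 1.42.0, limma 3.58.1), a block on replicate number, the length and GC offset (spline with 4 degrees of freedom) and leaving out libraries.

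Named members were those called, the 5 highest per kilobase, the 5 shortest and 3 longest transcripts, those called within the family, a list of well-studied members and low paralogues. From each pathway list up to 3 genes with the smallest p were eligible. 1 gene of the lists is not reported here by name. The members and lists were chosen with earlier results of these data known. The block and the 3-library omission on the within-family scale were added after seeing the data.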

Additional observations from a re-analysis of the deposited data

Results flagged for a closer look

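In control 6 the ribosomal protein genes held 4.89% of counts, where the next control library held 2.99%. The gap was large for a group of 6 by Dixon's criterion. The log2 CPM of 9 named members stood apart in the same library by the same criterion: Rpl5 (10.03), Rps14 (9.779), Rpl11 (8.923), Rpl26 (8.902), Rps19 (8.655), Rps27 (8.453), Rps15a (8.425), Rpl36 (8.047) and Rpl22 (7.668). In all, 10 of 81 such checks met the criterion, and all 10 were control 6. Chance alone marks about 1 check in 20, and these checks share their libraries. No library of CONV or FLASH met it.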

How the results depend on the processing

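The median log2 fold change of the members stayed positive in CONV against control, except with the length and GC offset (-0.01), and in FLASH against control, except with library totals (-0.16). Leaving out 1 library moved it from 0.19 to 0.65, from 0.04 to 0.46 and, in FLASH against CONV, from -0.36 to 0.01. The count of members higher in CONV (1) became 0 with library totals, with a filter of at least 1 count, with limma-trend on the authors' log2 values and with the length and GC offset, which gave 3 lower. It became 31 without control 6, CONV 6 and FLASH 1, and 0 to 36 without single libraries (36 without control 6, 2 without FLASH 1, and 0 without any of control 1 to 5, CONV 2, CONV 6 or CONV 7). The count higher in FLASH (1) became 9 with the offset and 9 without the 3 libraries, and 1 to 14 without single libraries. With library totals 1 member, Rpl22, was lower in FLASH than in control (-0.55) and 1, Rpl36al, lower than in CONV (-0.72). FLASH against CONV gave 6 higher with the offset, 1 lower without the 3 libraries, and 0 to 1 lower without single libraries. Rps28 reversed there (0.34). Library totals also moved calls over all genes to 909 higher and 2846 lower, 1381 and 6550, and 911 and 2816, from 1662 and 1953, 2719 and 3416, and 1606 and 1611. The offset gave 1517 and 2675 in CONV. The cause of these shifts was not tested.

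Without the 50 most abundant genes the mean share was 3.63% in control, 4.29% in CONV and 3.58% in FLASH. Relative to the family total, members called in CONV (0) became 2 without the 3 libraries (Rpl22 and Rps2) and 0 to 4 without single libraries (4 without control 6, 1 without FLASH 1). In FLASH they became 1 with the replicate block, which lost Rpl22 (-0.41, adjusted p = 0.1003), and 2 to 3 without single libraries. In FLASH against CONV they became 1 without the 3 libraries and 0 to 1 without single libraries. In the main fit on this scale, 9.96%, 24.3% and 4.64% of all genes were called in the 3 comparisons. The shares of all genes under the other settings are not given here, so these counts cannot be set against them. Same-numbered libraries are not known to be paired: of 13 pairs, 3 had a correlation of their deviations above 0.1 (range -0.27 to 0.61). With the replicate block, the members called in CPM stayed at 1, 1 and 0, while calls over all genes became 1259 higher and 1266 lower in CONV against control, 2022 and 2257 in FLASH against control, and 795 and 774 in FLASH against CONV.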
